A study of Mus musculus with 4 samples.

Results

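The effect of adding 5-azacytidine (5-AZA) to celecoxib was examined in 19165 single cells, out of 34447 in the series. They were the cells that the deposited cell table placed in the COX2i library (9133 cells) or in the COX2i + 5-AZA library (10032 cells). Both libraries came from YUMM1.7-OVA RTT tumours. YUMM1.7 is a mouse melanoma line with mutant Braf, OVA marks the model antigen ovalbumin, RTT marks a derivative that no longer responded to targeted therapy, and the cancer cells carried an mCherry vector. The tumours grew in Rag2-/- hosts, which make no T or B cells, and each host received OT-1 CD8+ T cells, which recognise ovalbumin, on day 7 (ACT). Tumours were taken on day 10, 72 h after ACT, and live CD45+ cells were sorted. COX2i tumours received celecoxib, an inhibitor of the enzyme COX2, by oral gavage, and COX2i + 5-AZA tumours received the same drug with 5-AZA injected into the peritoneum. CTRL tumours had the mCherry vector, the same ACT and neither drug, and their levels are given as background. The comparison asked what 5-AZA added to celecoxib in the immune cells of these tumours.

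Each group was 1 library made from 3 pooled tumours, so no difference given here has a replicate check, no test between groups was possible and no p-value is given. Levels are sums of unique molecular identifiers (UMIs) over the cells of a class, scaled to the total UMIs of that class (CPM). Differences are log2 ratios of CPM, COX2i + 5-AZA over COX2i, and each range given in parentheses is an exact 95% interval of the counts alone, which leaves out any spread between tumours. A gene is called higher or lower where it passed 2-fold, a log2 ratio of at least 1 or at most -1. That is a rule of size and not of significance.

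5-AZA is a cytidine analogue that cells build into RNA and DNA, where it traps DNA methyltransferases. Loss of methylation can release silenced genes and repeat elements, and RNA from such elements is one known trigger of type I interferon. Type I interferon acts on the interferon-stimulated response element (ISRE) and induces genes such as Isg15 and the Ifit family. Interferon-γ, made mainly by NK and T cells, acts on the gamma-activated sequence (GAS), and through IRF1, and induces guanylate-binding proteins (GBPs), immunity-related GTPases (IRGs), Cxcl9 and antigen presentation genes. Tumour macrophages are also known for matrix remodelling, for which they secrete fibronectin and matrix metalloproteinases (MMPs).

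The COX2i library held 78722763 UMIs and the COX2i + 5-AZA library 76262645, with medians of 7502 and 6039.5 UMIs per cell. Of the 17 deposited classes, 9 had at least 50 cells in both libraries and were compared, and monocytes and macrophages were also summed. Of 18000 droplet barcodes, 1165 occurred in both libraries, and no full cell barcode did. The authors' class names were kept. The marker lists of neutrophils, NK cells, cDC1, cDC2, fibroblasts, TAM_C1q and TAM_Spp1 were each highest in the class of that name in both libraries. The monocyte 1 list was highest in Infl_Mono rather than Monocyte_1 in COX2i + 5-AZA. The cells of a class were not the same kind throughout. In clusters rebuilt without interferon genes, 60.3% of TAM_C1q cells of COX2i lay in 1 cluster led by Cbr2 and Slco2b1, whereas 54.0% of those of COX2i + 5-AZA lay in another led by Ccl8 and Vcam1. For TAM_Spp1, 77.4% of COX2i cells lay in a cluster led by Thbs1 and Ccr2, and 53.4% of COX2i + 5-AZA cells in a cluster led by F10 and Inhba. Most cells of that second cluster were Monocyte_1, and 120 of 857 TAM_Spp1 cells of the combination lay in the cluster led by Thbs1 and Ccr2. Cells compared as TAM_Spp1 thus lay mostly in different clusters in COX2i and in COX2i + 5-AZA. For TAM_cycling, 42.2% of COX2i + 5-AZA cells lay in a cluster that held 3.64% of the COX2i cells. The cDC2, NK_cells and Myofibrobl classes kept at least 91.6% of their cells in 1 cluster in both libraries.

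In percentage points, the makeup of the infiltrate differed most in monocytes. Monocytes (Infl_Mono, Monocyte_1 and Monocyte_3 together) made up 6.11% (5.63 to 6.62) of COX2i cells and 46.7% (45.7 to 47.7) of COX2i + 5-AZA cells, and macrophages 74.7% and 41.0%. NK cells numbered 50 and 437, and neutrophils 5 and 196. In cells above 2000 genes alone, the log2 ratio of the share was 2.84 in place of 5.16 for neutrophils and 3.67 in place of 2.93 for monocytes. The Myofibrobl class, which is non-immune and passed the CD45 sort nonetheless, numbered 913 and 160. The gene-level comparisons were therefore made within classes.

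Within classes, a small part of the measured genes passed 2-fold. A gene entered where its pooled level gave at least 20 expected UMIs in the shallower library. In TAM_C1q, 350 of 10439 genes were higher (3.35%) and 476 lower (4.56%). In TAM_cycling the counts were 363 higher (3.41%) and 498 lower (4.68%) of 10639. TAM_Spp1 had 240 higher (2.58%) and 316 lower (3.4%) of 9298. In these 3 macrophage classes more genes were lower than higher. In cDC2, 185 genes were higher (2.45%) and 364 lower (4.82%) of 7547, and in cDC1 86 (1.79%) and 149 (3.11%) of 4795. The split was the opposite in the other classes. Infl_Mono had 122 higher (2.44%) and 80 lower (1.6%) of 5000. Monocyte_1 had 127 higher (1.68%) and 50 lower (0.661%) of 7570. The non-immune class had 159 higher (1.65%) and 105 lower (1.09%) of 9614. NK_cells had 115 higher (3.51%) and 15 lower (0.458%) of 3272. Over monocytes and macrophages summed, where the change in class mix enters, 655 of 11569 genes were higher (5.66%) and 1074 lower (9.28%), and with the class mix of COX2i the lower count was 585.

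The split between directions was not stable in most classes. With the filter at 100 UMIs it turned in all 5 macrophage and dendritic classes, to 223 genes higher and 156 lower in TAM_C1q, 142 and 67 in TAM_Spp1, 11 and 10 in cDC1 and 77 and 60 in cDC2, with 187 lower and more higher in TAM_cycling. With cells thinned to 2000 UMIs it turned in all of these but cDC2. Infl_Mono turned with the filter at 5 UMIs (272 higher and 353 lower), and the non-immune class at 1.5-fold (382 and 500) and when thinned (55 and 63). In Monocyte_1 and NK_cells more genes were higher in each alternative run. Scaling moved the split too. The median gene among those that entered stood at -0.19 over monocytes and macrophages, at -0.10 in TAM_Spp1 and cDC2 and nearer 0 elsewhere. When log2 ratios were centred on the median of all genes with a UMI in both libraries (size factors), which stood at -0.15 in Infl_Mono, -0.11 in TAM_Spp1 and -0.10 in cDC2, the share of called genes that were higher went from 60.4% to 77.0% in Infl_Mono, from 43.2% to 54.9% in TAM_Spp1, from 33.7% to 44.1% in cDC2 and from 37.9% to 51.0% over monocytes and macrophages. In clusters rebuilt without interferon genes, TAM_Spp1 had 94 genes higher and 156 lower. The filter used the pooled level, so in classes of unequal depth it removed more genes that were low in the deeper library. With a filter on the mean CPM of both libraries, the lower counts were 35 in NK_cells, 124 in Infl_Mono and 88 in Monocyte_1, and Infl_Mono then had 104 higher.

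Few genes passed 2-fold in most classes. Across the 9 classes, 849 genes were higher in at least 1 class and 1277 lower, and 34 were higher in one and lower in another. In at least 3 classes 233 genes were higher and 180 lower, in at least 5 classes 79 and 16, and in at least 7 classes 11 and 3. No gene passed in all 9 classes, although 2814 entered in each of them. The 11 genes higher in at least 7 classes were S100a8, Mmp12, Gbp4, Irgm1, Gadd45b, Ccl5, Serpina3g, Dnase1l3, Socs1, Pla2g7 and Cd274. The 3 lower were Fn1, Itga6 and Fcrls. These genes were selected by this count, so their values in the plot of shared genes are a description. The 8 classes of S100a8 include NK_cells, TAM_C1q and TAM_cycling, and in the latter pair its share of cells with a UMI, at 2000 UMIs per cell, was below that in NK_cells. The classes of Mmp12 and of Fn1 include NK_cells too.

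**Figure D1:**
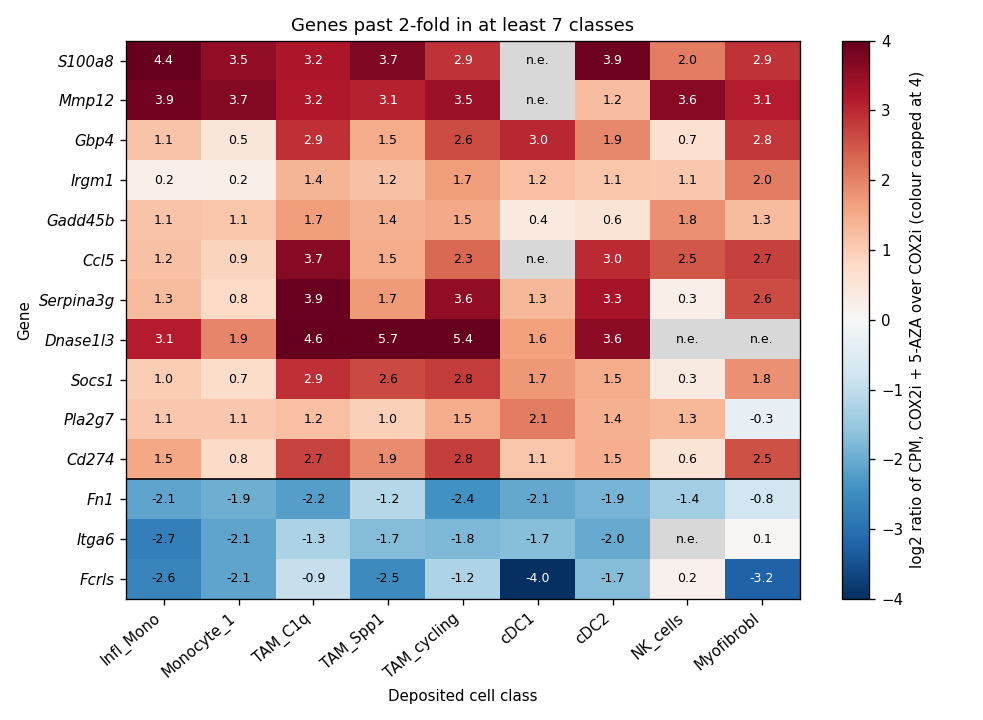
Log2 ratio of CPM, COX2i + 5-AZA over COX2i, for the 14 genes past 2-fold in the same direction in at least 7 of the 9 classes, with genes in rows and deposited classes in columns. Red is higher and blue lower in COX2i + 5-AZA, the colour is capped at 4, and n.e. marks genes that did not enter in a class. S100a8, Mmp12 and Fn1 each passed in 8 classes, which for each of them include NK_cells.

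Several of these genes belong to the interferon response. Irgm1, an IRG (chromosome 11, 48861968 to 48871683, minus strand, GRCm38), was at 80.8 CPM in TAM_C1q of COX2i and 207 CPM in COX2i + 5-AZA, and at 50.3 CPM in CTRL. Socs1, which restrains JAK signalling downstream of cytokine receptors, was at 14.6 and 110 CPM there, and at 7.97 CPM in CTRL. Cd274, which encodes the checkpoint ligand PD-L1, was at 19.3 and 127 CPM in TAM_C1q and at 72.2 and 269 CPM in TAM_Spp1. All 3 were thus higher in the combination than in both other libraries in TAM_C1q. Their counting intervals did not meet there, as the log2 ratios were 1.35 (1.26 to 1.45), 2.91 (2.71 to 3.11) and 2.72 (2.54 to 2.90).

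The promoters of these shared genes show where interferon motifs lie. The windows are RefSeq reference sequence (GRCm38.p6) from 250 bases before to 50 after the gene start, printed 5′ to 3′ on the gene's strand, and the 6 shown are of genes past 2-fold in at least 7 classes, with and without a match. Among the other genes of that count, the Fcrls and Gadd45b windows hold neither motif and the Pla2g7 window holds a GAS match at -145. Capitals mark matches to an ISRE (GAAANNGAA) or a GAS (TTCNNNGAA), searched on both strands, and matches may overlap. Positions count from the RefSeq gene start, which for Irgm1 lies downstream of the GENCODE start given above. Irgm1 lies at chr11:48871371-48871670 on the minus strand with ISRE matches at -30 and -24, Socs1 at chr16:10785487-10785786 on the minus strand with ISRE matches at -83 and -77, and Cd274 at chr19:29367188-29367487 on the plus strand with 1 ISRE match at -76. Serpina3g, a serine protease inhibitor gene, lies at chr12:104235897-104236196 on the plus strand with a GAS match at -33. S100a8 (chr3:90668821-90669120, plus strand) and Mmp12 (chr9:7344147-7344446, plus strand) have neither sequence in the window, which says only that these letters are not there.
Irgm1: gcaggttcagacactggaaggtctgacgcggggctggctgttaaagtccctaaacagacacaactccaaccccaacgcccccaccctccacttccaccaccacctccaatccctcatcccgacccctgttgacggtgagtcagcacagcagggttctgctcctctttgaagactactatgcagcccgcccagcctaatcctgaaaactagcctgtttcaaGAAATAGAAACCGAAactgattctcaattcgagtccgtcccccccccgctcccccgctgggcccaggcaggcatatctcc
Socs1: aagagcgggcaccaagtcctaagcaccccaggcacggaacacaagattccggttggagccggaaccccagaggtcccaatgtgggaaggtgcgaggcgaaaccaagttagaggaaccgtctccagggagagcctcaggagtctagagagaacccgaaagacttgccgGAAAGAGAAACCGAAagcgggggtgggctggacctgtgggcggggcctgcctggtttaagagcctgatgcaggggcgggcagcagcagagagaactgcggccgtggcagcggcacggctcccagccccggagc
Cd274: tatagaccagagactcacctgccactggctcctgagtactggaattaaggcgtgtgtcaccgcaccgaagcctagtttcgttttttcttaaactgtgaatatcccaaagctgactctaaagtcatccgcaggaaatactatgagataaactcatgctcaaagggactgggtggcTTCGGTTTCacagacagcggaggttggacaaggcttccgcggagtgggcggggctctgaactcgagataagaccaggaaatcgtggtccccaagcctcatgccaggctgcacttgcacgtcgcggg
Serpina3g: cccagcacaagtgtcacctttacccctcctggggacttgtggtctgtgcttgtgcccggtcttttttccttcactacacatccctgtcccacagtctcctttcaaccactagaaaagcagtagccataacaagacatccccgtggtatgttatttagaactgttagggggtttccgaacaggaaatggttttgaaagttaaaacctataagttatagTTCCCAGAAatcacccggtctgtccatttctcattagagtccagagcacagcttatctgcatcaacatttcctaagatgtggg
S100a8: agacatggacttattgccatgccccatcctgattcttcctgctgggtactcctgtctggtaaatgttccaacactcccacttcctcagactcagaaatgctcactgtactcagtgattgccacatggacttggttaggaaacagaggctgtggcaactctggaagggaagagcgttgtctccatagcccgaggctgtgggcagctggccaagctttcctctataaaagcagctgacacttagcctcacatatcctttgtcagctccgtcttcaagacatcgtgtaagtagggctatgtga
Mmp12: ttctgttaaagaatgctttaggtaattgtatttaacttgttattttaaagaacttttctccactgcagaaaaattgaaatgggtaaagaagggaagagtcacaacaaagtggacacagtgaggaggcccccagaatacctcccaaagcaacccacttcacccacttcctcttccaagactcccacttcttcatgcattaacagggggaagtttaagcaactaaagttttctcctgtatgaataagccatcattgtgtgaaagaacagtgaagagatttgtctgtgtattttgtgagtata

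Over all windows, 7.30% of 9982 held an ISRE match and 6.88% a GAS match. Among genes higher in at least 3 classes, 38 of 165 windows (23.03%) held an ISRE match and 26 (15.8%) a GAS match. Among genes lower in at least 3 classes, the shares were 5.88% and 5.15% of 136 windows. A match is a description of sequence and not a binding site. The CpG content, which DNA methylation acts on, was compared too. A CpG ratio (observed over expected) of at least 0.6 was found in 69.8% of all windows, in 27.3% of those of genes higher in at least 3 classes, and in 61.0% of those of genes lower in at least 3 classes. The Mmp12 window holds 0 CpG, the S100a8 window 4, and the Cd274 window 15.

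Interferon-regulated genes were compared within each class with a list skewed to interferon-γ and a list skewed to type I interferon. The interferon-γ list was higher in macrophages, dendritic cells and non-immune cells, and not in Monocyte_1 or NK_cells. In TAM_cycling, 14 of 14 measured members were past 2-fold higher, with a median log2 ratio of 2.38 beside -0.09 over all genes of the class. In TAM_C1q it was 13 of 14 (median 1.88), in TAM_Spp1 7 of 12 (1.28), in cDC2 10 of 13 (1.59), in cDC1 9 of 12 (1.17) and in the non-immune class 11 of 12 (2.61). In Infl_Mono 4 of 14 passed (0.62), and in rebuilt clusters 10 of 14 (1.54). In NK_cells none of 8 was higher (0.24), and Cxcl9 was lower, from 46 UMIs in 3 of 50 cells of COX2i and 137 UMIs in 53 of 437 cells of the combination. In Monocyte_1 none of 14 passed, with a median of 0.00 beside -0.04 over all genes. The 6 markers of Monocyte_1, which include Cxcl9, Gbp2 and Nos2 of this list, moved with these values, from 433 to 1416 CPM in TAM_C1q, from 856 to 1745 CPM in TAM_Spp1, from 768 to 3360 CPM in TAM_cycling and from 2803 to 6956 CPM in cDC2, while Monocyte_1 went from 4.31% to 36.3% of the cells. The part of monocyte RNA in the interferon, GBP and IRG values was not tested. Both monocyte classes are led by interferon-induced genes, so cells enter them by the level of such genes, and their values are a description.

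The type I list had another order of classes. It was highest in TAM_cycling, with 12 of 14 members higher and a median of 1.69, and in the non-immune class 5 of 10 were higher (1.01). Few members entered in cDC1 and NK_cells, where 3 of 4 and 2 of 4 were higher. In cDC2 7 of 14 were higher (0.98) and in TAM_C1q 4 of 14 (0.62). In TAM_Spp1 only 2 of 13 were higher, and the median of -0.03 was near the -0.10 of all genes, while the interferon-γ list stood at 1.28 in the same cells. In Infl_Mono and Monocyte_1 no member passed, and the medians were -0.23 and -0.30. In rebuilt clusters 11 of 14 type I genes were higher in TAM_C1q (median 1.36), and in TAM_Spp1 none of 7 type I genes and 4 of 9 interferon-γ genes were.

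**Figure D2:**
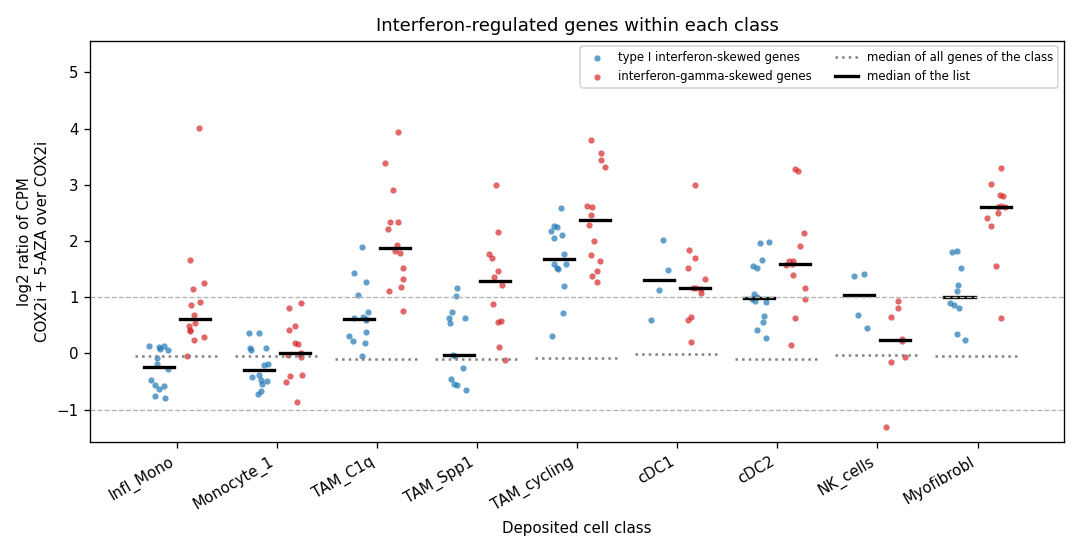
Log2 ratio of CPM (COX2i + 5-AZA over COX2i, vertical axis) of each measured gene of the type I interferon-skewed list (blue) and the interferon-gamma-skewed list (red) in each deposited class. Black bars are list medians, dotted lines the median of all genes of the class and dashed lines 2-fold; the interferon-gamma median lies above the type I median in the 3 TAM classes, cDC2, Infl_Mono and Myofibrobl and below it in cDC1 and NK_cells, and in Monocyte_1 both lie at or below 0.

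Single genes show the levels behind the medians. Cxcl9, the chemokine that attracts CXCR3+ T and NK cells, was at 63.2 CPM in TAM_cycling of COX2i and 385 CPM in COX2i + 5-AZA, beside 11.9 CPM in CTRL, a log2 ratio of 2.61 (2.54 to 2.68). It was at 24.5 and 114 CPM in TAM_C1q, at 30.2 and 135 CPM in TAM_Spp1 and at 129 and 571 CPM in cDC2. In NK_cells it was at 180.3 and 72.2 CPM. In Monocyte_1 Cxcl9 was high in both libraries and lower in the combination, at 1989 and 1091 CPM, a log2 ratio of -0.87 (-0.92 to -0.81). In the clusters rebuilt without interferon genes its log2 ratio in TAM_Spp1 was 1.11 instead of 2.16.

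Isg15, a ubiquitin-like protein induced by type I interferon, was at 79.1 and 327 CPM in TAM_cycling, a log2 ratio of 2.05 (1.98 to 2.11). In TAM_C1q it was at 70.9 and 146 CPM (1.04, 0.93 to 1.14) and in TAM_Spp1 at 100.4 and 167 CPM (0.73, 0.58 to 0.88). Ifit3, of the same response, was at 14.02 and 63.7 CPM in TAM_cycling and at 13.4 and 20.2 CPM in TAM_C1q. Isg15 and Ifit3 were thus both past 2-fold in TAM_cycling, and in TAM_C1q Isg15 alone was.

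Members of the GBP and IRG family, GTPases that act on the vacuoles of intracellular pathogens, were higher in macrophages, dendritic cells and the non-immune class, and few in monocytes and NK_cells. All 16 measured members were higher in TAM_cycling (median 2.07) and all 15 in the non-immune class (2.50). In TAM_C1q and cDC2 it was 14 of 16 each, in cDC1 8 of 11, in TAM_Spp1 6 of 14, in Infl_Mono 3 of 16, in NK_cells 1 of 9 and in Monocyte_1 none of 16 (median 0.00). Gbp2 was at 214 and 861 CPM in TAM_cycling and at 44.8 CPM in CTRL, and in Monocyte_1 it was at 3757 and 2827 CPM. Of the 11 members with a promoter window, 10 held an ISRE match and 6 a GAS match. Members of this family resemble each other, and probe cross-binding between them was not checked.

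Among the upstream regulators, Irf1, a transcription factor of the interferon-γ response, was at 182 and 571 CPM in TAM_cycling and 223 and 761 CPM in TAM_Spp1, log2 ratios of 1.65 (1.60 to 1.69) and 1.77 (1.68 to 1.85). Ifngr1, a chain of the interferon-γ receptor, was at 1141 and 565 CPM in cDC2, a log2 ratio of -1.01 (-1.13 to -0.90).

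Antigen presentation genes followed the class. Of the MHC class I and immunoproteasome list, 11 of 17 measured members were higher in the non-immune class (median 1.45), 7 of 19 in TAM_cycling (0.84), 3 of 19 in TAM_C1q (0.68), 2 of 18 in cDC2 (0.73) and none in NK_cells, cDC1 or Monocyte_1. In the non-immune class H2-K1, a classical class I heavy chain, was at 100.5 and 420 CPM, and Tap1, which carries peptides into the endoplasmic reticulum, at 28.4 and 117 CPM. Psmb8, an immunoproteasome subunit, was at 60.0 and 203 CPM there.

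MHC class II differed between the macrophage classes. In TAM_cycling 6 of 12 measured members were higher (median 1.04) and in TAM_C1q 4 of 11 (0.78), among them H2-Aa, Cd74 and the class II transactivator Ciita. H2-Aa was at 935 and 2047 CPM in TAM_cycling and at 329 and 665 CPM in TAM_C1q. TAM_Spp1 already held 3938 CPM in COX2i and had 3954 CPM in the combination, and no class II gene was higher there. None of 12 members passed in cDC2 or cDC1, where H2-Aa stood between 11810 and 17770 CPM in these libraries.

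Most matrix genes were lower in macrophages, while some MMPs were higher. Of 24 listed collagens, MMPs and related genes, 4 of 23 measured members were higher and 13 lower in TAM_C1q, 3 and 13 of 20 in TAM_Spp1, and 4 and 14 of 23 in TAM_cycling. The medians were -1.12, -1.38 and -1.39. Mmp8, Mmp12 and Mmp13 were higher in all 3, with Mmp19 in TAM_C1q and Mmp9 in TAM_cycling. The lower members were collagens, Mgp and Sparc, and in some classes Mmp2 and the inhibitors Timp1 and Timp3.

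Mmp13 (chromosome 9, 7272514 to 7283331, plus strand), a collagenase, was at 15.3 CPM in TAM_C1q of COX2i and 674 CPM in COX2i + 5-AZA, and at 14.9 CPM in CTRL, a log2 ratio of 5.47 (5.28 to 5.66). In TAM_cycling it was at 8.58 and 534 CPM, in TAM_Spp1 at 16.5 and 204 CPM and in Monocyte_1 at 21.0 and 459 CPM. Celecoxib alone was thus near CTRL in TAM_C1q, and the combination stood apart in all 4 classes. In the non-immune class the difference was small, 46.7 and 78.9 CPM (0.76, 0.52 to 0.98). Mmp13 is among the leading genes of the rebuilt cluster led by Ccl8 and Vcam1. That cluster held 2.17% of TAM_C1q cells of COX2i and 54.0% of those of the combination. Cells compared as TAM_C1q thus lay mostly in different clusters in COX2i and in COX2i + 5-AZA.

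Mmp12 (chromosome 9, 7344381 to 7369499, plus strand), the macrophage elastase, was at 235 and 1982 CPM in TAM_Spp1 beside 134 CPM in CTRL, a log2 ratio of 3.07 (3.00 to 3.15). In the combination this was its highest level among the 9 classes, while in COX2i it was higher in cDC2. Mmp12 is among the leading genes of the rebuilt cluster led by F10 and Inhba. That cluster held 3.05% of TAM_Spp1 cells of COX2i and 53.4% of those of the combination. Mmp12 was at 47.9 and 443 CPM in TAM_C1q and at 62.9 and 805 CPM in Monocyte_1, where CTRL had 367 CPM. The smallest difference among the classes it entered was in cDC2, 330 and 772 CPM (1.23, 1.10 to 1.35), and in rebuilt clusters that cDC2 value was 0.90. Mmp12 was past 2-fold in NK_cells too, from 3 and 277 UMIs, and in the non-immune class, from 111 and 236 UMIs. Monocyte_1 held 1.94% of all Mmp12 UMIs of COX2i and 36.9% of those of the combination. The part of monocyte RNA in the Mmp12 values of other classes was not tested. Mmp8, the neutrophil collagenase, was at 11.7 and 178 CPM in TAM_Spp1 and at 1.19 and 20.8 CPM in TAM_C1q.

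Fn1 (chromosome 1, 71585520 to 71653200, minus strand), which encodes fibronectin, was lower in every class but one by the 2-fold rule. In TAM_cycling it was at 6342 and 1179 CPM, beside 4614 CPM in CTRL, a log2 ratio of -2.43 (-2.45 to -2.41). In Infl_Mono it was at 3858 and 890 CPM. In TAM_Spp1 its log2 ratio was -1.15 (-1.17 to -1.13), and -0.88 in rebuilt clusters. The exception was the non-immune class, at -0.77 (-0.80 to -0.75). TAM_C1q, TAM_Spp1, TAM_cycling and the non-immune class held 21.5%, 14.7%, 41.4% and 19.65% of all Fn1 UMIs of COX2i. NK_cells, among the classes called lower, held 282 of 541027. Over all cells Fn1 was at 6873 and 1465 CPM. The part of RNA from macrophages and non-immune cells in the Fn1 values of other classes was not tested. Spp1, the secreted phosphoprotein osteopontin, was lower in TAM_C1q (-1.49, -1.504 to -1.473) and at -0.75 (-0.78 to -0.73) in the class that bears its name.

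Collagen and proteoglycan transcripts in macrophages were low beside those of the non-immune class. Col1a2 was at 241 and 73.5 CPM in TAM_C1q and Bgn at 82.3 and 23.01 CPM, while in the non-immune class Col1a2 was at 9669 and 6197 CPM. That class held 90.5% and 82.9% of all Col1a2 UMIs of the libraries and made up 10.0% and 1.59% of the cells. The summed level of all 7 fibroblast markers was 407 and 143 CPM in TAM_C1q and 265 and 87.0 CPM in TAM_Spp1, with Lum at 0 in TAM_Spp1 of the combination. The ratio of Col1a2 to Bgn UMIs in COX2i was 2.84 in the non-immune class, 2.92 in TAM_C1q, 2.35 in TAM_Spp1 and 2.94 in TAM_cycling. In the combination it was 2.14, 3.19, 2.83 and 3.08 in the same order. The ratio of Mgp to Col1a2 in COX2i was 0.409, 0.273, 0.416 and 0.271 in that order. The ratio of Col1a2 to Fn1 in COX2i was 1.06 in the non-immune class and 0.0330, 0.0130 and 0.0274 in those macrophage classes. The part of RNA from non-immune cells in the collagen values of macrophages was not tested.

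**Figure D3:**
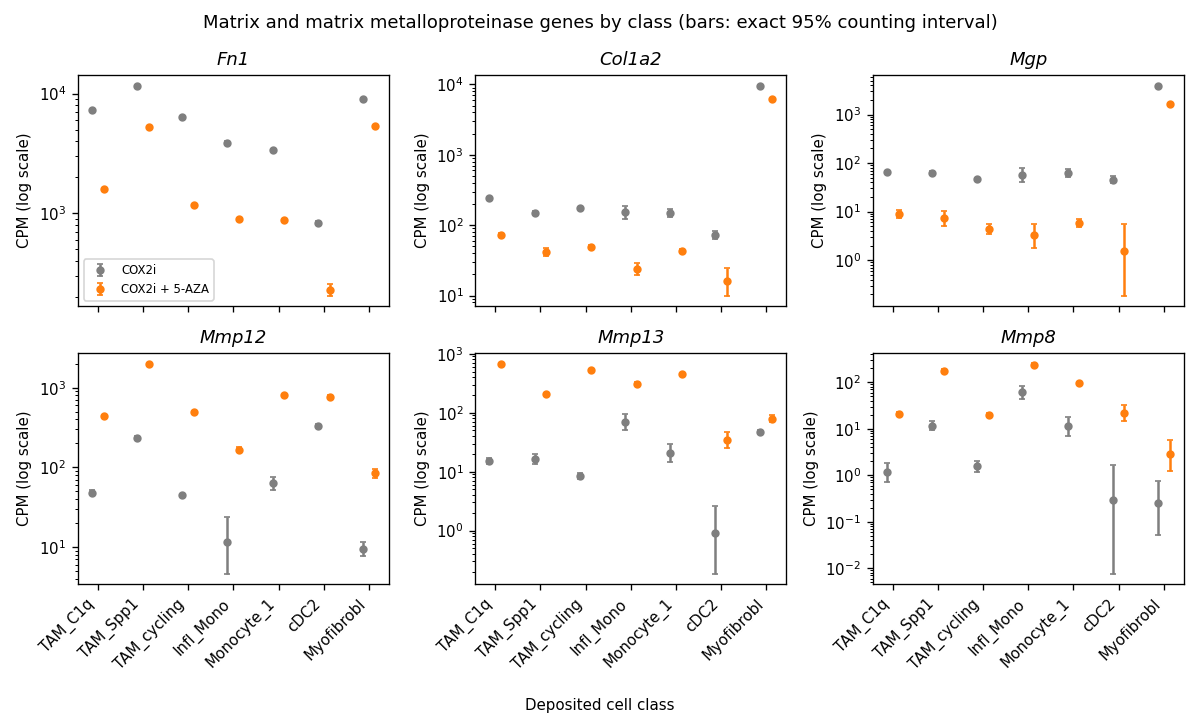
Level (CPM, log axis) of Fn1, Col1a2, Mgp, Mmp12, Mmp13 and Mmp8 in 7 deposited classes in COX2i (grey) and COX2i + 5-AZA (orange), with exact 95% counting intervals as bars. Fn1, Col1a2 and Mgp lie lower in the combination in each class shown, by under 2-fold for Fn1 and Col1a2 in Myofibrobl, and Mmp12, Mmp13 and Mmp8 lie higher.

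Inflammatory genes were higher within macrophages. Of the IL-1, TNF and neutrophil chemokine list, 9 of 10 measured members were higher in TAM_C1q (median 1.37), 6 of 10 in TAM_Spp1 (1.06) and 6 of 9 in TAM_cycling (1.16), and 3 of 6 and 3 of 7 in Infl_Mono and Monocyte_1. In rebuilt clusters 4 of 11 members were higher in TAM_C1q and 1 of 5 in TAM_Spp1. Il1b, a cytokine of inflammasome-activated myeloid cells, was at 342 and 949 CPM in TAM_C1q and at 2520 and 5049 CPM in TAM_Spp1. Cxcl2, which attracts neutrophils through CXCR2, was at 504 and 1403 CPM in TAM_Spp1, beside 1410.0 CPM in CTRL. Il1b in TAM_Spp1 stood at 2598 CPM in CTRL, near the COX2i level, whereas Cxcl2 in the combination stood at the CTRL level.

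Ptgs2, which encodes COX2, the target of celecoxib, was higher in all 3 of these macrophage classes. It was at 457 and 1108 CPM in TAM_Spp1 (1.28, 1.21 to 1.34), beside 857 CPM in CTRL, at 94.5 and 231 CPM in TAM_C1q and at 84.2 and 217 CPM in TAM_cycling. The transcript does not report the activity of the inhibited enzyme. Ptges, a prostaglandin E synthase gene, had log2 ratios of -0.57 (-1.04 to -0.12) in TAM_C1q, 0.03 (-0.64 to 0.68) in TAM_Spp1 and -0.59 (-1.03 to -0.16) in TAM_cycling.

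Some alarmins and acute-phase genes were higher in the macrophage and monocyte classes compared. Of 12 measured members, 6 were higher in TAM_C1q, TAM_Spp1, Infl_Mono and Monocyte_1 each, and 7 in TAM_cycling. S100a8 is among these in all 5 classes, although in TAM_C1q and TAM_cycling of the combination the share of cells with an S100a8 UMI, at 2000 UMIs per cell, was below that of NK_cells. This calcium-binding alarmin of neutrophils and monocytes was at 169 and 3556 CPM in Infl_Mono, a log2 ratio of 4.40 (4.12 to 4.69), and at 28.2 and 326 CPM in Monocyte_1. In TAM_Spp1 it was at 19.9 and 260.3 CPM, and CTRL had 94.6 CPM. CTRL thus lay between the libraries in TAM_Spp1, and in Infl_Mono it had 51.6 CPM, below both. S100a4, of the same family, went the other way in TAM_C1q, from 1705 to 577 CPM, and was also past 2-fold lower in TAM_cycling and Monocyte_1.

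Neutrophils moved with these values. Neutro cells numbered 5 in COX2i and 196 in COX2i + 5-AZA, and held 13.9% and 54.5% of all S100a8 UMIs. The summed level of the 8 measured neutrophil markers was 388 and 4943 CPM in Infl_Mono, 170 and 587 CPM in Monocyte_1, and 85.1 and 367 CPM in TAM_Spp1. In Infl_Mono of COX2i, Cxcr2, Retnlg, Ltf and Ngp were at 0, and in COX2i + 5-AZA none was. The ratio of S100a9 to S100a8 UMIs in the combination was 1.14 in Neutro, 0.301 in Infl_Mono, 0.244 in Monocyte_1 and between 0.152 and 0.379 in the macrophage classes compared. In NK_cells of the combination it was 0.540. The part of neutrophil RNA in the S100a8 values was not tested.

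The arginine list holds genes of nitric oxide synthesis and arginine metabolism. Nos2, the inducible nitric oxide synthase, was at 19.8 and 157 CPM in TAM_Spp1 (2.99, 2.73 to 3.26), and at 13.1 and 211 CPM in Infl_Mono. Ass1, which regenerates arginine, was at 118 and 322 CPM in TAM_Spp1 and at 38.7 and 135 CPM in TAM_cycling. The whole list had 5 of 10 members higher in TAM_C1q and TAM_Spp1 and 4 of 10 in TAM_cycling, and no member lower.

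Some genes of resident and scavenging macrophages were lower. Of this list 4 of 14 measured members were lower in TAM_C1q (median -0.26), 4 of 12 in TAM_Spp1 (-0.40) and 5 of 15 in TAM_cycling (-0.54), and none was higher. The 7 markers of resident-like macrophages, another list, summed to 1434 and 1444 CPM in TAM_C1q, 1076 and 725 CPM in TAM_Spp1 and 1067 and 1190 CPM in TAM_cycling. Cbr2, a carbonyl reductase and marker of resident macrophages, was at 396 and 190.1 CPM in TAM_C1q and at 296 and 120 CPM in TAM_cycling. Lyve1, a hyaluronan receptor, was at 41.2 and 17.8 CPM in TAM_C1q, and CTRL had 104 CPM. Mrc1, the mannose receptor, hardly differed in TAM_C1q, at 3277 and 3334 CPM (0.03, 0.01 to 0.04). Fcrls, an Fc receptor-like gene, was at 4385 and 2291 CPM in TAM_C1q, at 331 and 34.8 CPM in the non-immune class and at 353 and 22.1 CPM in cDC1. TAM_C1q and TAM_cycling held 32.2% and 63.1% of all Fcrls UMIs of COX2i, and 47.7% and 44.3% of those of COX2i + 5-AZA. The 8 TAM_C1q markers moved with it, from 2518 to 1233 CPM in the non-immune class and from 2593 to 1055 CPM in cDC1, and the part of macrophage RNA in those values was not tested.

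The osteoclast genes split within the list. Acp5, tartrate-resistant acid phosphatase, was at 50.3 and 288 CPM in TAM_C1q, at 67.3 and 273 CPM in TAM_Spp1 and at 39.7 and 190.1 CPM in TAM_cycling, and its CTRL levels there were between 113 and 192 CPM. Ocstamp, which takes part in cell fusion, was at 2.32 and 38.0 CPM in TAM_C1q. Ctsk, the collagen-degrading cathepsin K, was lower in TAM_C1q (21.2 and 8.004 CPM) and TAM_Spp1 but higher in TAM_cycling (14.7 and 38.8 CPM, 1.40, 1.23 to 1.57). Ctsk thus took opposite directions among the macrophage classes.

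The genes with the largest differences in each macrophage class, by the rule of size, add 3 further patterns. Vcam1, an adhesion receptor of tissue macrophages, was at 8.47 and 123 CPM in TAM_C1q, and CTRL had 129.9 CPM, so the combination stood at the CTRL level. Jaml, a junctional adhesion molecule, was likewise at 5.33 and 64.2 CPM in TAM_C1q beside 44.1 CPM in CTRL. Dnase1l3, a secreted nuclease, was at 4.50 and 194 CPM in TAM_cycling beside 1.14 CPM in CTRL, and Tlr12, a receptor for profilin, at 4.90 and 73.7 CPM beside 2.86 CPM. For these last genes both other libraries were low and the combination stood apart. The rebuilt cluster led by Ccl8 and Vcam1 held 2.17% of TAM_C1q cells of COX2i and 54.0% of those of the combination.

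In TAM_Spp1 the largest differences were Fam71f2, Mmp8, Lcn2, S100a8 and Saa3 upwards and Mgp, Fcrls, Bgn, Timp1 and Asns downwards. Lcn2, an iron-scavenging lipocalin, was at 3.95 and 54.8 CPM, and Saa3, an acute-phase protein, at 7.61 and 96.0 CPM, with CTRL at 24.3 and 64.1 CPM. Neutro cells held 39.0% of all Lcn2 UMIs and 4.81% of all Saa3 UMIs of the combination, and their Mmp8 level there was 1312 CPM. Infl_Mono held 38.2% of those Lcn2 UMIs, and Monocyte_1 and Infl_Mono 52.7% and 24.2% of those Saa3 UMIs. The part of monocyte RNA in the Lcn2 and Saa3 values of TAM_Spp1 was not tested. The part of neutrophil RNA in the Lcn2 and Mmp8 values of TAM_Spp1, where neutrophil markers went from 85.1 to 367 CPM, was not tested. Timp1, an inhibitor of MMPs, was at 116 and 28.4 CPM. Fam71f2 had a log2 ratio of 4.16 (3.58 to 4.81) there, and 0.92 in rebuilt clusters. Ccr2, the receptor that brings monocytes into tissue, was among the largest falls of TAM_C1q, at 439 and 132 CPM, and was at 1177 and 768 CPM in TAM_Spp1. The rebuilt cluster led by Thbs1 and Ccr2 held 28.5% of TAM_C1q cells of COX2i and 0.58% of those of the combination.

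Some metabolic and stress genes were lower. Asns, asparagine synthetase, a target of the amino acid response, was at 67.8 and 15.7 CPM in TAM_C1q, beside 20.0 CPM in CTRL, a log2 ratio of -2.11 (-2.32 to -1.90). Of 15 measured stress-response genes, Asns, Trib3, Chac1 and Atf5 were lower in TAM_C1q and TAM_cycling. In the non-immune class Ddit3 (158 and 63.6 CPM), Trib3 (91.1 and 20.6 CPM) and Chac1 were lower. Fabp5, a fatty acid-binding protein, was higher in all 3 macrophage classes, with 339 and 1077 CPM in TAM_C1q.

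Cell cycle genes were lower in cDC2, and mitosis genes in cDC1, TAM_C1q and TAM_Spp1. In cDC2, 20 of 23 measured S phase genes were lower (median -1.51) and 19 of 23 mitosis genes (-1.54), beside a median of -0.10 over all genes of the class. In TAM_C1q it was 3 of 25 and 16 of 23 (medians -0.65 and -1.12), in TAM_Spp1 4 of 22 and 8 of 19, and in cDC1 1 of 22 and 12 of 21 (medians -0.15 and -1.18). In Monocyte_1 none of 13 and 2 of 6 were lower (-0.54 and -0.83), and in NK_cells 2 of 15 and none of 9 (-0.46 and -0.68). In TAM_cycling none of 25 and none of 23 passed, with medians of -0.10 and -0.22, and in the non-immune class none passed either. In rebuilt clusters 8 of 23 mitosis genes were lower in TAM_C1q and none of 4 in TAM_Spp1, where the median was -0.15 instead of -0.96. TAM_cycling went from 34.6% to 13.2% of the cells, and Mki67 over all cells from 346.6 to 143.0 CPM. The part of RNA from cycling cells in the values of other classes was not tested.

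Mki67 (chromosome 7, 135689784 to 135716361, minus strand), a marker of proliferation, was at 243 and 70.9 CPM in cDC2, a log2 ratio of -1.78 (-2.10 to -1.47), and CTRL had 122 CPM. It was at 638 and 467 CPM in TAM_cycling (-0.45, -0.49 to -0.42). Hist1h1d, a linker histone expressed in S phase, was at 60.9 and 9.91 CPM in cDC2 and at 81.3 and 30.2 CPM in TAM_cycling. In TAM_cycling Hist1h1d was the 1 linker histone of 6 past 2-fold, none of the 6 lay above 0 and their median was -0.73, beside -0.09 over all genes of the class.

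**Figure D4:**
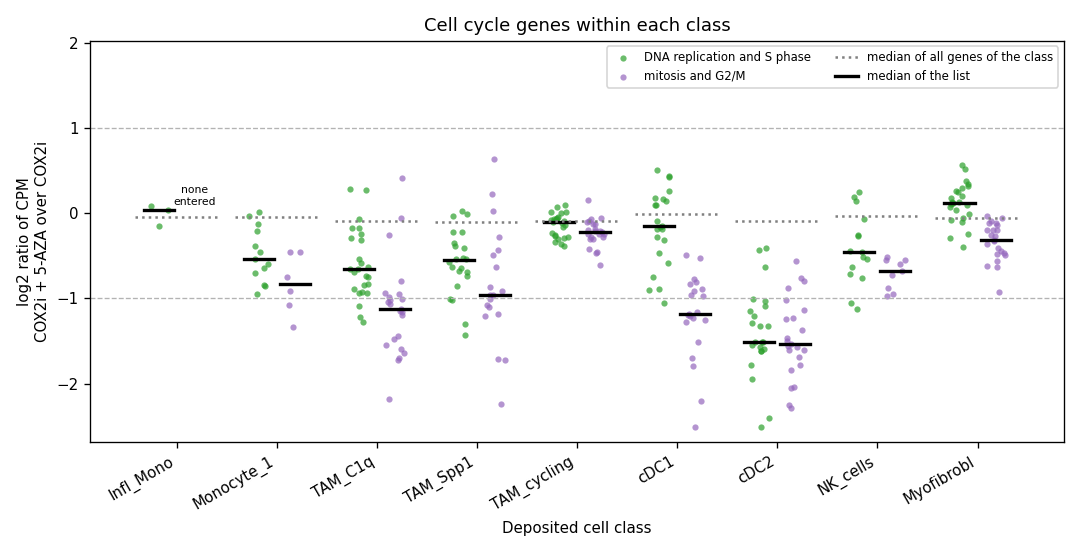
Log2 ratio of CPM (COX2i + 5-AZA over COX2i, vertical axis) of each measured gene of the DNA replication and S phase list (green) and the mitosis and G2/M list (purple) in each deposited class. Black bars are list medians, dotted lines the median of all genes and dashed lines 2-fold; both medians lie below -1 in cDC2 and near the class median in TAM_cycling, and no mitosis gene entered in Infl_Mono.

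Some cytotoxic effector genes were higher in NK cells. In NK_cells, 4 of 12 measured cytotoxic effector genes were higher and none lower (median 0.76). Gzma, a granule protease, was at 1438 and 6851 CPM, a log2 ratio of 2.25 (2.10 to 2.40), beside 2927 CPM in the 11 NK cells of CTRL. Gzmb was at 2567 and 6180 CPM (1.27, 1.15 to 1.38), whereas Gzmc, the most abundant granzyme in both libraries, was at 17790 and 12510 CPM (-0.51, -0.55 to -0.46). Prf1, perforin, was at 0.90 (0.74 to 1.05) and Ifng at 129 and 199 CPM (0.62, 0.11 to 1.18). Granzyme genes are near copies of each other and are uncertain to that extent.

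The chemokines and identity genes of NK cells did not move together. Ccl5 was at 745 and 4180.0 CPM (2.49, 2.28 to 2.70), and Xcl1, which attracts cDC1, was at 1250.0 and 531 CPM (-1.24, -1.42 to -1.05). Tnfsf11, the cytokine RANKL, was at 337 and 75.4 CPM. Of 11 measured NK identity genes, 2 were higher and none lower (median 0.05). They were Klrb1c, at 90.2 and 194 CPM (1.10, 0.49 to 1.78), and Klra8, an NK receptor gene with 3 UMIs in COX2i (3.05, 1.48 to 5.34). Ncr1, Eomes, Il2rb and Tbx21 had log2 ratios between -0.11 and 0.34. Among the largest rises by rule were Chil3, Clec4n, Mmp12 and Retnla, which are myeloid genes, and Mmp12 was at 11.8 and 146 CPM, from 3 and 277 UMIs. The 8 TAM_C1q markers summed to 2156 and 4275 CPM in NK_cells. A UMI of a T cell marker was found in 4 of the 50 and 32 of the 437 NK cells, and in 2 of 666 and 2 of 261 cDC2.

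Ifng UMIs were few and came mainly from lymphocytes. NK_cells held 33 of 37 in COX2i and 377 of 696 in COX2i + 5-AZA. The 7 cells of the T_CD8 class held 263 of the 696. Monocyte_1 held 29 of them and TAM_cycling 11.

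In the non-immune class the 5 largest rises were Cxcl9, Cxcl10, Mmp12, Cfb and Iigp1. Cxcl9 was at 22.2 and 219 CPM (3.30, 3.09 to 3.51) and Iigp1, an IRG, at 28.7 and 232 CPM, while CTRL had 0.519 and 1.35 CPM. Complement factor B (Cfb) was at 7.87 and 67.1 CPM, and the chemokine Ccl2 at 214 and 591 CPM. The 6 markers of Monocyte_1, which include Cxcl9, Cfb and Gbp2, summed to 289 and 1648 CPM in the non-immune class. At 2000 UMIs per cell, Cxcl9 was found in 14.5% (9.40 to 20.9) of non-immune cells of the combination, which overlaps the share in NK_cells. Unthinned, it was found in 28.75% (21.9 to 36.4) of these deeper cells and in 12.1% (9.22 to 15.6) of NK_cells. At 1000 UMIs the shares were 10.6% (6.31 to 16.5) and 2.52% (1.26 to 4.46). At neither of these depths did the ranges overlap. The part of monocyte RNA in the rises of this class was not tested. Both fibrillar collagen chains were abundant and moved apart, Col1a1 from 3155 to 5257 CPM (0.74, 0.71 to 0.76) and Col1a2 from 9669 to 6197 CPM (-0.64, -0.66 to -0.62). Mgp, matrix Gla protein, was at 3952 and 1676 CPM, and Dmp1, a mineralised-tissue matrix gene, at 1233 and 245 CPM.

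In Infl_Mono the 5 largest rises were S100a9, Ccl24, S100a8, Wfdc21 and Nos2, of which Nos2 is on the interferon-γ list. Ccl24, an eosinophil chemokine, had 0 UMIs in COX2i and 136 CPM in COX2i + 5-AZA. With the floor of 3 UMIs for the COX2i library, the log2 ratio was at least 4.79. The 5 largest falls were Tmem119, Itga6, Col1a2, Fcrls and Spp1, and Apoe, an apolipoprotein, was at 7280.0 and 2310.0 CPM. The 3 C1q chains were lower in Infl_Mono, with C1qa at 4046 and 1678 CPM, and higher by less than 2-fold in Monocyte_1, with C1qa at 2116 and 3115 CPM. The 8 TAM_C1q markers summed to 19810 and 7374 CPM in Infl_Mono and the 6 TAM_Spp1 markers to 11430 and 4897 CPM, none of them at 0 in either library. The part of macrophage RNA in these falls was not tested. In Monocyte_1 the 5 largest rises were Ccl24, S100a9, Mmp13, Mmp12 and S100a8, and Acp5 was at 33.5 and 180.1 CPM. The 5 largest falls there were Bgn, Fcrls, Itga6, Hist1h1b and Col3a1.

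The dendritic classes were small. In cDC1, 79 and 60 cells were compared, and the cDC1 markers Clec9a and Xcr1 differed little, at 0.06 (-0.18 to 0.30) and 0.17 (-0.04 to 0.38) on the log2 scale. The largest rises there were Chil3, Cxcl10, Gbp4, Ifi204 and Ppp1r14a, and the largest falls Fcrls, Cdc25b, Ccl17, Spp1 and Cd63. Cxcl10 was at 20.7 and 230 CPM (3.48, 2.64 to 4.43). Without the 5% of cells with most UMIs, Cd63 was at -0.83 instead of -2.66. Infl_Mono and Monocyte_1 held 38.9% and 43.9% of all Chil3 UMIs of the combination. The part of monocyte RNA in the Chil3 value of cDC1 was not tested. In cDC2 the largest rises were Car2, S100a8, Fam71f2, Dnase1l3 and Ly6d, and the largest falls Cd34, Hist1h1d, Hist1h1b, Tk1 and Enpp1. At 2000 UMIs per cell, S100a8 was found in 13.9% (9.81 to 18.85) of cDC2 of the combination. That overlaps the 12.7% (9.11 to 17.1) of NK_cells. Cd34, a progenitor antigen, was at 116 and 10.7 CPM, beside 245 CPM in CTRL. Ly6d in cDC2 had a log2 ratio of 3.33, and 1.03 without cells in shared droplets.

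Maturation and checkpoint genes were compared in cDC2. Ccl22 was at 31.3 and 108 CPM (1.79, 1.42 to 2.17), and Ccr7, the homing receptor of mature dendritic cells, was at 135 and 132 CPM (-0.03, -0.29 to 0.22). Of 9 measured maturation genes, Ccl22 alone was higher. Cd274 and Pdcd1lg2, the ligands of PD-1, were both past 2-fold in cDC2, TAM_C1q, TAM_Spp1 and TAM_cycling. Of the cytokines that support NK and T cells, Il18bp, a decoy of interleukin-18, was higher in all 3 macrophage classes. Il15 did not pass 2-fold in them, with 15.7 and 15.8 CPM in TAM_C1q (0.01, -0.26 to 0.28).

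The share of cells with a UMI was measured after thinning each cell to 2000 UMIs and leaving out shallower cells. Cxcl9 was found in 3.24% (2.65 to 3.92) of 3144 TAM_cycling cells of COX2i and in 21.7% (285 of 1315 cells) in COX2i + 5-AZA. In NK_cells, which should lack it, the shares were 6.45% of 31 and 7.56% (4.80 to 11.2) of 291. The combination's shares of 10.3% (8.72 to 12.1) in TAM_C1q and 9.35% (7.45 to 11.5) in TAM_Spp1 were near that background at this depth, while TAM_cycling and cDC2, with 27.4% (21.9 to 33.4), stood above it. Unthinned, 6.64% and 38.5% of TAM_cycling cells had a Cxcl9 UMI, and in the combination 21.4% (19.3 to 23.7) of TAM_C1q, 18.3% (15.8 to 21.1) of TAM_Spp1 and 12.1% (9.22 to 15.6) of the shallower NK_cells. At 1000 UMIs the shares in the combination were 5.45% (4.31 to 6.78), 5.72% (4.26 to 7.49) and 2.52% (1.26 to 4.46). In Monocyte_1 the thinned share was 51.1% and 44.6%.

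For S100a8 the thinned share was 10.8% (5.90 to 17.8) and 52.7% (49.0 to 56.3) of Infl_Mono cells, and 12.7% (9.11 to 17.1) of NK_cells in the combination. The shares of 7.54% in TAM_C1q and 5.17% in TAM_cycling of the combination were below that of NK_cells, so neither expression nor a difference is read from them. Unthinned, the shares were 27.7% in TAM_C1q, 28.3% in TAM_cycling and 21.7% in NK_cells. That of 16.6% (14.2 to 19.4) in TAM_Spp1 overlapped it. Nos2 was found in 2.05% and 11.2% (9.10 to 13.5) of TAM_Spp1 cells, and in 1.72% (0.560 to 3.96) of NK_cells of the combination. Mki67 was found in 20.9% (17.9 to 24.3) of cDC2 of COX2i and 7.76% (4.73 to 11.9) of those of the combination. The Mki67 shares were 7.14% and 3.23% in Monocyte_1 and 6.60% and 3.03% in TAM_Spp1, lower in the combination there too. Median depths of NK_cells were 3099 and 2606 UMIs and those of TAM_cycling 10388.5 and 13011 UMIs before thinning, and 19 of 50 and 146 of 437 NK cells were left out.

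**Figure D5:**
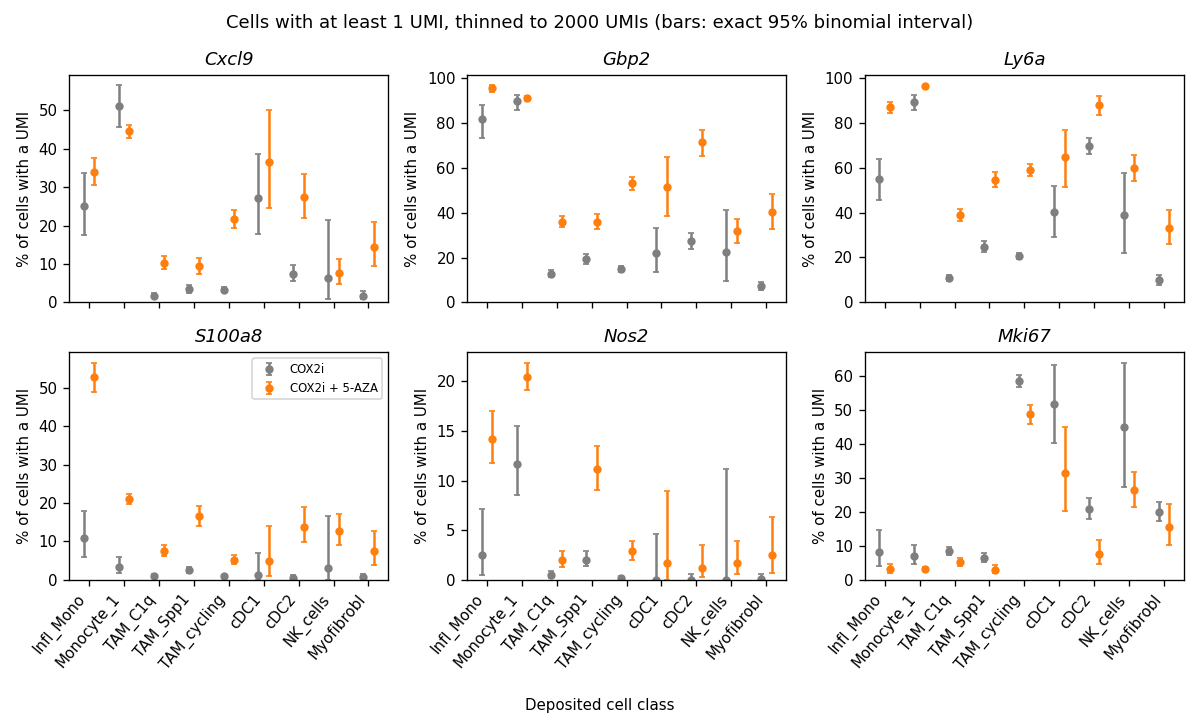
Share of cells (%) with at least 1 UMI of Cxcl9, Gbp2, Ly6a, S100a8, Nos2 and Mki67 in the 9 deposited classes after thinning to 2000 UMIs, in COX2i (grey) and COX2i + 5-AZA (orange), with exact 95% binomial intervals as bars. Cxcl9 shares lie higher in the combination in the TAM classes and cDC2 and lower in Monocyte_1, and Mki67 shares lie lower in the combination in all 9 classes.

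Genes close to the action of 5-AZA differed in some classes. Of the DNA methylation list, no member passed 2-fold in Infl_Mono, Monocyte_1, NK_cells, cDC1 or the non-immune class. In cDC2, Dnmt1, the maintenance methyltransferase, was at 155 and 74.7 CPM (-1.06, -1.38 to -0.74), and Uhrf1 and Hells, which act with it at replication, were lower too, 3 of 12 measured members beside 4.82% of all genes. In the same class 20 of 23 S phase genes were lower, with a median of -1.51. The part of the cell cycle in the falls of methylation genes was not tested. In TAM_C1q Uhrf1 was lower, and in TAM_Spp1 and TAM_cycling Dnmt3l was higher at low levels, 4.25 and 8.94 CPM in TAM_Spp1. Of the germline genes that promoter methylation silences, 4 were in the table, and 2 entered over monocytes and macrophages with none past 2-fold. Rrm2, the ribonucleotide reductase subunit that converts the drug's diphosphate form, was at 129 and 37.4 CPM in cDC2 and at 399 and 322 CPM in TAM_cycling. Samhd1, a nucleotide hydrolase, was at 311 and 640 CPM in TAM_cycling (1.04, 1.01 to 1.08).

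In other lists few or no members passed 2-fold. No member of the ribosome biogenesis list or of the nuclear-encoded respiratory chain list passed 2-fold in any of the 9 classes. Of 22 cholesterol synthesis and uptake genes none passed in the macrophage classes. Of 23 hypoxia and glycolysis genes none was higher in any class, and Adm and Egln3 were lower in TAM_C1q and TAM_cycling, Ankrd37 in TAM_C1q and the non-immune class, and Slc16a3 in the latter. Ddit4, a stress-induced regulator on the p53 list, was at 108 and 387 CPM in TAM_C1q, and 4 of 19 listed p53 targets were higher there (median 0.56), beside 3.35% of all genes.

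Alternative activation genes had 5 of 10 higher in TAM_C1q (median 1.10), 2 of 10 in TAM_Spp1 (-0.16) and 7 of 11 in TAM_cycling (1.31). Retnla, a member of that list, was higher in TAM_C1q and TAM_cycling and lower in TAM_Spp1. In the same order of classes, nucleic acid sensors had 3 of 22, 1 of 22 and 6 of 22 higher, among them Ifi203, Ifi204 and Ifi205 in TAM_C1q and TAM_cycling, and checkpoint and co-stimulatory molecules 4 of 17, 2 of 16 and 4 of 16. Of all genes, 3.35%, 2.58% and 3.41% were higher in these classes. The 1 of 22 sensors in TAM_Spp1 is near that share and is not read as a result. Of the complement list C3 was higher in all 3, and C2 and Cfb in TAM_C1q and TAM_cycling. Lipid genes had 4 of 19, 2 of 18 and 3 of 19 higher, with Pltp and Cd36 lower in TAM_Spp1. Ccl8, a monocyte chemokine, was higher in all 3. Heat-shock genes Hspa1a and Hspa1b were higher in TAM_C1q and TAM_cycling, and the lysosomal list differed in Atp6v0d2 and Ctsk only.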

How the data were processed

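Per the labels and the study's methods, live CD45+ cells of 3 pooled tumours per condition were fixed for 22 h, hybridised with Chromium Flex probes and counted with cellranger multi (Cell Ranger 7.1.0, mm10). The authors deposited whole UMI counts of 12584 genes in 34447 cells, with a class for each cell from their own integration. Probes report targeted genes, and cross-binding within multigene families was not checked.

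Cells were grouped by library and class, and UMI counts were summed and divided by the total of the class (CPM). Depth ran from 255134 UMIs (NK_cells, COX2i) to 35308302 (TAM_cycling, COX2i). Log2 ratios have exact conditional 95% intervals, shares exact Clopper-Pearson intervals, and a count of 0 was set to 3 UMIs. Genes with at least 20 expected UMIs in the shallower library entered. Named genes were the 5 largest differences each way per class with at least 50 CPM in the higher library, genes shared by most classes and members of the 44 lists (627 of 659 listed genes were in the table) or 23 marker lists. All lists, and the comparison itself, were chosen with earlier results of these data known. The steps were tested on simulated data. No doublet caller was run, and leaving out the 5% of cells with most UMIs was an alternative. The others were size factors, totals without the 50 most abundant genes, filters at 5 and 100 UMIs or on the mean CPM, 1.5-fold, cells above 2000 genes, thinning to 2000 or 1000 UMIs, the class mix of COX2i, rebuilt clusters and cells outside shared droplets. Promoter windows came from RefSeq (9982 of 12584 genes) and gene positions from GENCODE for GRCm38. Python 3.11.15, numpy 2.4.6, scipy 1.17.1, pandas 2.3.3, scanpy 1.11.5, igraph 0.11.9 and matplotlib 3.10.9 were used. Some items are not reported here.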

Additional observations from a re-analysis of the deposited data

How the results depend on the processing

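No paired analysis was possible because each group had 1 library. Among the named genes no log2 ratio past 2-fold changed sign in any alternative, 951 values moved by less than their counting interval and 388 by more. The cause of these moves was not tested. Counts below are higher, then lower, for Infl_Mono, Monocyte_1, Myofibrobl, NK_cells, TAM_C1q, TAM_Spp1, TAM_cycling, cDC1 and cDC2 where both moved by over 1.5 times.

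At 1.5-fold in place of 2-fold, which admits more genes by construction, the counts were 1083 and 2175 over monocytes and macrophages, 367 and 367, 391 and 298, 382 and 500, 307 and 175, 682 and 994, 568 and 903, 654 and 1040, 355 and 527, and 498 and 1031. With the filter at 5 UMIs, which admits more genes, they were 272 and 353 in Infl_Mono, 264 and 229 in Monocyte_1, 294 and 261 in Myofibrobl, 486 and 185 in NK_cells, 369 and 730 in TAM_Spp1, 299 and 678 in cDC1 and 339 and 790 in cDC2, and 563 higher in TAM_C1q. With the filter at 100 UMIs, which admits fewer, they were 48 and 18 in Infl_Mono, 60 and 8 in Monocyte_1, 58 and 30 in Myofibrobl, 12 and 2 in NK_cells, 223 and 156 in TAM_C1q, 142 and 67 in TAM_Spp1, 11 and 10 in cDC1 and 77 and 60 in cDC2, and 187 lower in TAM_cycling. With cells thinned to 2000 UMIs, which leaves fewer genes, they were 60 and 25 in Infl_Mono, 55 and 63 in Myofibrobl, 231 and 205 in TAM_C1q, 46 and 35 in cDC1 and 113 and 177 in cDC2, with 25 lower in Monocyte_1, 149 in TAM_Spp1 and 188 in TAM_cycling.

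With rebuilt clusters, 188 genes were higher in Infl_Mono, and 94 were higher and 156 lower in TAM_Spp1. With size factors 51 were lower in Infl_Mono. With the filter on the mean CPM, chosen after seeing the data, 124 were lower in Infl_Mono, 88 in Monocyte_1 and 35 in NK_cells. With the class mix of COX2i 585 were lower over monocytes and macrophages.

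The log2 ratio of the share of monocytes was 2.93, and 3.67 in cells above 2000 genes, 3.09 with rebuilt clusters and 2.81 without Myofibrobl in the denominator. That of macrophages was -0.86, and -0.61, -1.06 and -0.99 under the same settings and -0.98 with monocytes and macrophages as denominator. In cells above 2000 genes that of Neutro was 2.84 in place of 5.16 and that of Myofibrobl -2.37 in place of -2.65. Genes below the filter in the small classes, NK_cells and cDC1 above all, could not be compared at this depth.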
